A study of Mus musculus with 16 samples.

Results

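The 10 genes described here build and hold the microvilli of the intestinal brush border: Vil1, Ezr, Myo1a, Myo7b, Cdhr2, Cdhr5, Ush1c, Espn, Pls1 and Eps8. They were taken by symbol from the table of gene counts, where each had 1 row, and they are 10 of the 46078 genes in it. Their level was measured by RNA sequencing of ileum mucosa from C57Bl/6 mice, with an age of 8 weeks in the sample labels and a higher age in the study's methods. There were 4 groups of 4 libraries each, labelled female Slfn3KO, female WT, male Slfn3KO and male WT. Slfn3KO mice carried a knockout of Slfn3 (Schlafen 3), genotyped on tail DNA, and the study's methods call the WT mice their littermates. The study asked whether the loss of Slfn3, a gene tied to enterocyte differentiation, acted on the gut epithelium and whether male and female mice differed in it.

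The apical face of an enterocyte carries a dense field of microvilli, each a finger of membrane around a bundle of parallel actin filaments. Villin, espin and plastin 1 tie the filaments together, Eps8 sits at their tips, and ezrin and myosin 1a fasten the bundle to the membrane around it. The tips of neighbouring microvilli are held together by a pair of protocadherins, Cdhr2 and Cdhr5, whose inner ends are anchored by the scaffold harmonin (Ush1c) and the motor myosin 7b. The brush border is assembled as cells leave the crypt and climb the villus, and villin is used as a marker of differentiated enterocytes.

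Promoter sequences from RefSeq (GRCm38.p6) were used for 8 of the 10 genes, as 10 windows of the 250 bases before a transcription start. Espn had 3 such windows, and Eps8 and Myo7b were not searched and are named only. Both strands were searched for 6 motifs of factors that act in the gut epithelium or on actin genes, and positions count backwards from the base before the start, which is -1. The windows of 3 genes are printed because each held a motif that fewer than 10% of promoters hold, and the capitals mark the matches. The Vil1 window is chr1:74409134-74409383 on the plus strand, before the RefSeq start, and its last bases overlap the gene as placed by the count table. The Cdhr2 window is chr13:54701213-54701462 on the plus strand, with an overlap of the same kind. The Espn window is chr4:152128926-152129175 on the minus strand, and lies inside the gene before the start of a shorter transcript.
Vil1: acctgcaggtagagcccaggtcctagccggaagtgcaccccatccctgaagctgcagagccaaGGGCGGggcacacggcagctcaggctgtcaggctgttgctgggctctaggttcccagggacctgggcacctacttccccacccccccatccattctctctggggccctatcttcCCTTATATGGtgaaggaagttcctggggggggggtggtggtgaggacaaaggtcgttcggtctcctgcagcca
Cdhr2: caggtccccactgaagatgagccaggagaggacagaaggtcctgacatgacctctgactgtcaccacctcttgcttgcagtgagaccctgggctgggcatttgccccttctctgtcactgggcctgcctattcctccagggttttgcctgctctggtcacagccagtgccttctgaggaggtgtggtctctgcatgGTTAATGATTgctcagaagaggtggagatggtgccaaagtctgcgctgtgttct
Espn: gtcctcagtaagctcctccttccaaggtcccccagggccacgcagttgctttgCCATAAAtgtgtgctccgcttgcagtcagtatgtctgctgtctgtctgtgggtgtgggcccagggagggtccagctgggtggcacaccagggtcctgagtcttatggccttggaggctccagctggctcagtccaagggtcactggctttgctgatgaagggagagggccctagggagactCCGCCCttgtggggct
The Vil1 window held a CArG box, the site of serum response factor, from -73 to -64, which 1.47% of all 32851 promoters in the same table hold. It also held a GC box (GGGCGG) from -187 to -182. The Cdhr2 window held the HNF1 motif, read as GTTAATGATT with the base before the final ATT left free in the search, from -54 to -45. This motif was found in 0.371% of all promoters. The Espn window held the CDX motif TTTATNG on the opposite strand from -197 to -191, found in 9.81% of all promoters, and a GC box from -16 to -11. The GC box was present in 5 of the 10 windows, belonging to Vil1, Espn, Ezr and Ush1c, and in 32.7% of all promoters. The HNF4 motif CAAAGNNCA and the TATA box TATAAA were in 0 of the 10 windows, beside 5.49% and 12.4% of all promoters. No matches of different motifs overlapped in these windows, and a match describes letters only.

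The libraries held between 20823279 and 30813117 counts on genes. Slfn3 itself had 0 to 2 counts in the 8 Slfn3KO libraries and 0 to 19 counts in the 8 WT libraries (median 3), so its counts check the genotype labels only weakly. In 4 WT libraries, numbers 3 and 4 of each labelled sex, Xist and the Y-linked transcripts went against the labelled sex. Labels were kept, and the medians of the 10 genes are given with and without these 4 libraries. Most values of single genes by labelled sex are given only with them. All 11 epithelial markers and all 5 markers of the distal small intestine were detected in all 4 groups, with summed levels of 18121 to 28658 and 3221 to 17937 CPM (counts scaled to library size) in single libraries. The 6 markers of the proximal small intestine varied 38.0-fold between libraries, from 116 to 4391 CPM.

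All 10 genes were highly expressed, with at least 3957 counts in every library, and they lay in 2 ranges of level per length. RPKM, the CPM divided by the exon length in kilobases, allows levels of different genes to be set side by side. The length is that of the gene, 5979 bases for Espn, and not of the transcript in use. A gene read from a shorter transcript, as Espn has, may thus stand too low, which was not tested. Vil1 was highest at 1182 ± 319.6 RPKM (SD, n = 16), followed by Cdhr5 at 844 ± 175 and Myo1a at 777 ± 173 RPKM. Ezr had 629.5 ± 176, Cdhr2 567 ± 136 and Pls1 482 ± 132 RPKM. The second range held Myo7b at 107 ± 27.0, Ush1c at 80.9 ± 11.6, Eps8 at 70.7 ± 14.3 and Espn at 55.6 ± 17.8 RPKM. The 2 ranges did not meet, since the lowest value of the upper one was 254 RPKM (Ezr) and the highest of the lower one was 163 RPKM (Myo7b). Within a range, neighbours in this order differed by less than the SD of the higher one, except for Vil1 above Cdhr5 and Eps8 above Espn. The order of neighbours held within 13 to 15 of the 16 libraries, and for Vil1 above Cdhr5 it held in 15. The adhesion complex had members in both ranges, with its cadherins in the upper one and its scaffold and motor in the lower one.

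**Figure D1:**
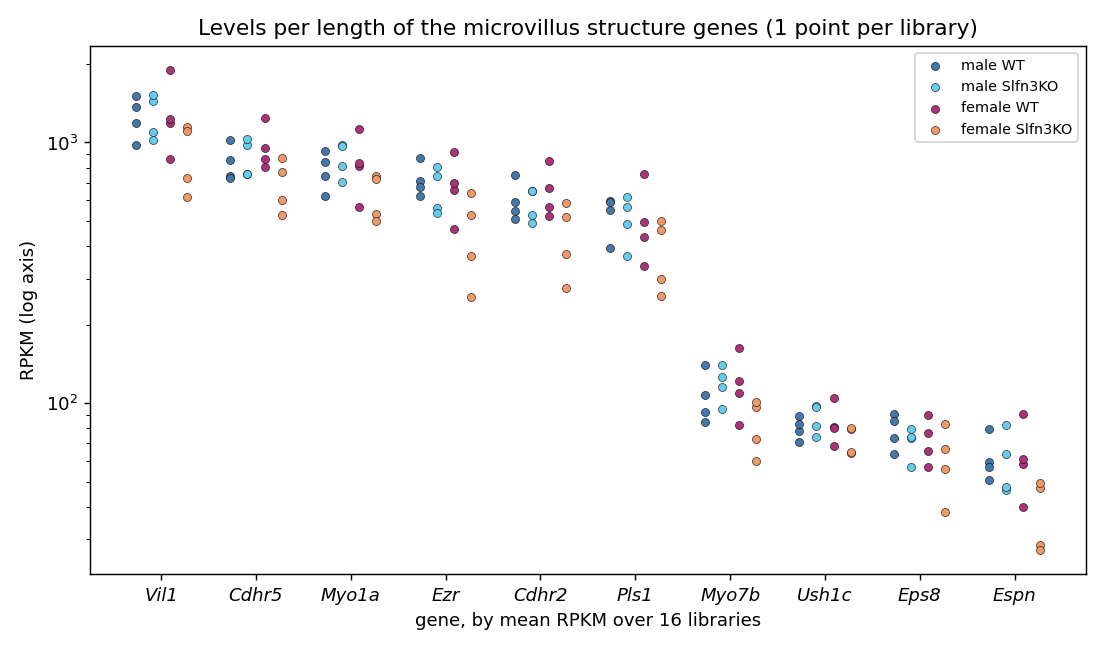
RPKM of each gene on a log axis, with 1 point per library, coloured by labelled sex and genotype and ordered by the mean over 16 libraries. Vil1, Cdhr5, Myo1a, Ezr, Cdhr2 and Pls1 form an upper range and Myo7b, Ush1c, Eps8 and Espn a lower one.

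Ezr encodes ezrin, which links membrane proteins to actin filaments (ENSMUSG00000052397, chromosome 17 from 6738041 to 6782784 of mm10). Ezr stood at 1209.5, 837, 1739 and 2114 CPM in the female Slfn3KO libraries 1 to 4 and at 3027, 2160.4, 1533 and 2306 CPM in the female WT libraries. In males it stood at 1849, 2442, 1767 and 2657 CPM in Slfn3KO and 2054, 2351, 2225 and 2867 CPM in WT. Female Slfn3KO 1 and 2 were the lowest libraries of all, while female Slfn3KO 3 and 4 lay inside the female WT range, so the genotypes overlapped in both sexes. The female log2 fold change was -0.61 ± 0.33 (SE; adjusted p = 0.339, edgeR). Short stretches of 50 bases shared with another gene made up 0.185% of the Ezr exons, through Gm5739, and 0% for the other 9 genes.

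Myo1a encodes the single-headed motor that tethers the membrane to the side of the bundle (ENSMUSG00000025401, chromosome 10 from 127705170 to 127720887). Myo1a ranged from 1689 to 2514 CPM in female Slfn3KO and from 1911 to 3823 CPM in female WT mice. In males the ranges were 2387 to 3309 CPM in Slfn3KO and 2115 to 3129 CPM in WT. The male mean was higher in Slfn3KO and the female mean was lower, with log2 fold changes of 0.15 ± 0.17 and -0.42 ± 0.25 (SE), and neither passed the test. The difference between the sexes was -0.56 ± 0.30 (adjusted p = 0.470, edgeR).

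Vil1 encodes villin, the actin bundling and severing protein of the brush border (ENSMUSG00000026175, chromosome 1 from 74409376 to 74435559). It stood at 2604, 2203, 4065 and 3933 CPM in the female Slfn3KO libraries and at 6742, 4217, 3057 and 4388 CPM in the female WT libraries. In males, Vil1 stood at 3642, 5107, 3911 and 5384 CPM in Slfn3KO and 4208, 4858, 3485 and 5353 CPM in WT. The 2 male groups had nearly the same mean, 4511 ± 863 and 4476 ± 810.4 CPM (SD, n = 4), and the female means were 3201 ± 937 and 4601 ± 1545 CPM. The log2 fold change was 0.016 ± 0.19 in males, with a 95% confidence interval of -0.42 to 0.45, and -0.52 ± 0.31 in females, with an interval of -1.23 to 0.18. Neither passed the test (adjusted p = 0.993 and 0.366, edgeR).

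Espn encodes espin, a small bundler that sets the length of actin protrusions (ENSMUSG00000028943, chromosome 4 from 152120331 to 152152371). Espn stood at 170.1, 163, 281 and 294 CPM in female Slfn3KO and 543, 351, 239 and 363 CPM in female WT libraries. In males it stood at 278, 383, 284 and 494 CPM in Slfn3KO and 355, 339, 303 and 477 CPM in WT. Again female Slfn3KO 1 and 2 were lowest and female WT 1 was highest, and female Slfn3KO 3 and 4 lay above female WT 3. Espn had the lowest female log2 fold change of the 10 genes, -0.72 ± 0.30 or 0.607 of the WT level. Its unadjusted p was 0.0407 and its adjusted p 0.282 (edgeR), and it was not called.

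Pls1 encodes plastin 1, also known as fimbrin, which packs the filaments of the bundle (ENSMUSG00000049493, chromosome 9 from 95752642 to 95845311). Its ranges were 1003 to 1937 CPM in Slfn3KO females, 1301 to 2938 in WT females, 1429 to 2413 in Slfn3KO males and 1531 to 2327 CPM in WT males. Eps8 caps and bundles filaments at the microvillus tip (ENSMUSG00000015766, chromosome 6 from 137477245 to 137654876). Eps8 stood at 320.1, 218, 384 and 478 CPM in female Slfn3KO and 514, 326, 376 and 439.5 CPM in female WT libraries, so that female Slfn3KO 4 exceeded 3 of the 4 female WT libraries. In males Eps8 stood at 325, 454, 423 and 425 CPM in Slfn3KO and 365, 422, 523 and 489 CPM in WT. Eps8 was the gene whose highest library was not female WT 1 but male WT 3. The female log2 fold changes were -0.42 ± 0.32 for Pls1 and -0.24 ± 0.25 for Eps8, with intervals of -1.13 to 0.30 and -0.82 to 0.33.

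Cdhr2 and Cdhr5 encode the protocadherins that meet between microvillus tips (ENSMUSG00000034918, chromosome 13 from 54701461 to 54736662, and ENSMUSG00000025497, chromosome 7 from 141269085 to 141276786). Cdhr2 stood at 1535, 1144, 2131 and 2413 CPM in female Slfn3KO and 3509, 2326, 2149.9 and 2754 CPM in female WT libraries. In males it stood at 2027, 2687, 2181 and 2699 CPM in Slfn3KO and 2094, 2256, 2448 and 3100.3 CPM in WT. Female Slfn3KO 1, 2 and 3 lay below every female WT library, and female Slfn3KO 4 lay above 2 of them. Cdhr5 ranged from 1386 to 2299 CPM in Slfn3KO females, 2112 to 3257 in WT females, 1991 to 2713 in Slfn3KO males and 1917 to 2689 CPM in WT males. The female log2 fold changes were -0.57 ± 0.28 for Cdhr2 and -0.48 ± 0.23 for Cdhr5 (adjusted p = 0.310 and 0.306, edgeR), beside -0.041 ± 0.17 and 0.077 ± 0.17 in males.

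Ush1c encodes harmonin, the scaffold under the cadherin tails (ENSMUSG00000030838, chromosome 7 from 46195350 to 46238503). Ush1c stood at 247, 249.7, 305 and 307 CPM in female Slfn3KO and 403, 313, 263 and 309 CPM in female WT libraries. In males it stood at 315, 374, 286 and 372 CPM in Slfn3KO and 300.4, 321, 272 and 344 CPM in WT. It was the steadiest of the 10 genes, with the smallest pooled log2 fold change, -0.046 ± 0.11, and an interval of -0.27 to 0.18. Myo7b encodes the motor that carries the complex to the tip (ENSMUSG00000024388, chromosome 18 from 31959234 to 32036961). Myo7b stood at 480.3, 397, 642 and 669 CPM in female Slfn3KO and 1079.7, 803, 548 and 721 CPM in female WT libraries, and in males at 761, 832, 626 and 931 CPM in Slfn3KO and 559.5, 709, 613 and 926 CPM in WT. Its male mean was higher in Slfn3KO and its female mean lower, with log2 fold changes of 0.17 ± 0.18 and -0.53 ± 0.25. The difference between the sexes, female minus male, was -0.69 ± 0.32, with an unadjusted p of 0.0483 and an adjusted p of 0.449 (edgeR), so it did not pass.

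**Figure D2:**
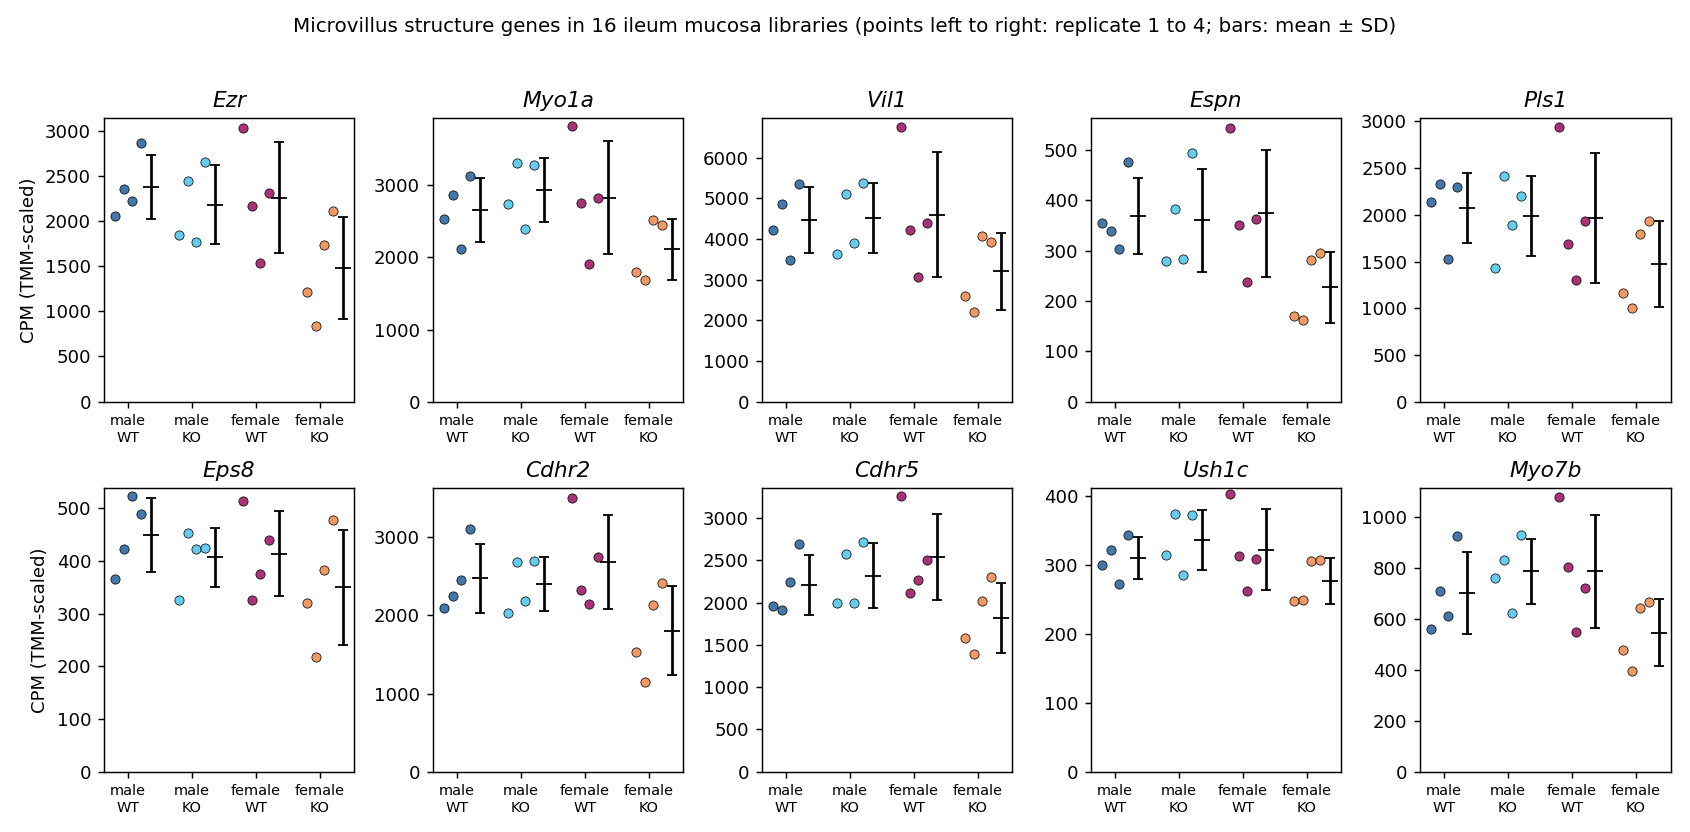
CPM of each of the 10 genes (axes from 0) in the 4 libraries of each group, with replicates 1 to 4 from left to right and the mean ± SD as bars; KO stands for Slfn3KO. Female KO 1 and 2 are the lowest libraries in every panel, and the ranges of KO and WT overlap in each sex.

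Across all 16 libraries, with sex as a covariate, each of the 10 genes had a lower mean in Slfn3KO than in WT, and 0 of the 10 passed the test. The pooled log2 fold changes ran from -0.38 in Espn and -0.37 in Ezr to -0.046 in Ush1c, with a median of -0.22, beside a median of -0.0037 over all 14822 genes tested. A call required both an adjusted p under 0.05 and a 1.5-fold difference, and edgeR called 0 genes, or 0% of those tested. At an unadjusted p under 0.05, edgeR counted 0 of the 10 genes beside 1770 of all genes (11.9%). DESeq2 called 54 genes (0.364%), and none of the 10. At an unadjusted p under 0.05, DESeq2 also counted 0 of the 10, beside 2004 genes (13.5%). Slfn3KO and WT values overlapped for 10 of 10 genes, and the share over all genes was not computed. Without the 4 WT libraries whose sex transcripts went against the label, the median of the 10 was -0.29. Without female WT 1 the pooled median was -0.12, without female Slfn3KO 2 it was -0.14, and without female Slfn3KO 1 and 2 together it was -0.060.

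In males the 10 genes showed no common direction. Myo7b, Myo1a, Ush1c, Cdhr5 and Vil1 had a higher mean in Slfn3KO and Eps8, Ezr, Pls1, Cdhr2 and Espn a lower one, with log2 fold changes from -0.14 to 0.17 and a median of -0.0070. The edgeR test called 0 of the 10 and 0 of all 14124 genes (0%), and at an unadjusted p under 0.05 it counted 0 of the 10 beside 542 of all genes (3.84%). With the replicate number as a block, the count over all genes was 936 and that over the 10 genes was still 0. DESeq2 called 14 genes (0.0991%), none of the 10. The 95% confidence intervals left room for differences of either sign, from -0.15 to 0.40 in Ush1c, the narrowest, to -0.50 to 0.44 in Espn, the widest. Without male WT 3 and 4 the male median was 0.089.

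In females all 10 genes had a lower mean in Slfn3KO, and none passed the test. The female log2 fold changes ran from -0.72 in Espn, -0.61 in Ezr and -0.57 in Cdhr2 to -0.24 in Eps8 and -0.22 in Ush1c. Their median was -0.50, beside -0.0098 over all 14064 genes tested. The edgeR test called 0 of the 10 and 0 of all genes (0%). At an unadjusted p under 0.05 it counted 1 of the 10, Espn, beside 2410 genes in either direction (17.1%) and 1204 lower in Slfn3KO (8.56%), so the share of the 10 was near the background. DESeq2 called 507 genes (3.6%), and 0 of the 10. At an unadjusted p under 0.05 DESeq2 counted 4 of the 10, Espn, Cdhr5, Cdhr2 and Myo7b, beside 2917 of all genes (20.7%), with adjusted p values from 0.156 to 0.213. Values overlapped between the female groups for 10 of 10 genes, again without a computed share over all genes. The smallest adjusted p of the 10 with edgeR was 0.282. The median was -0.31 without female WT 1, -0.67 without female WT 3 and 4 and -0.21 without female Slfn3KO 1 and 2. Without female WT 3 and 4, edgeR counted 2 of the 10 at an unadjusted p under 0.05, beside 3508 of all 14634 genes.

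The difference between the sexes was tested as the interaction of sex and genotype, as the female log2 fold change minus the male one. All 10 estimates were below 0, from -0.69 in Myo7b and -0.68 in Espn to -0.10 in Eps8, with a median of -0.53. The edgeR test called 0 of the 10 and 0 of 14822 genes (0%), and at an unadjusted p under 0.05 it counted 1 of the 10, Myo7b, beside 1639 genes (11.1%). DESeq2 called 19 genes (0.128%), none of the 10, and counted 2 of the 10 at an unadjusted p under 0.05, beside 1942 of all genes (13.1%). For Vil1 the 95% confidence interval of the difference ran from -1.32 to 0.25, so neither a difference nor its absence was shown. Without the 4 WT libraries whose sex transcripts went against the label, the median was -0.78 and 4 of the 10 had an unadjusted p under 0.05, beside 4057 of all genes (26.9%). In that fit edgeR called 359 genes (2.38%) and 0 of the 10, and the adjusted p of Myo7b was 0.0904. The median was -0.35 without female WT 1 and -0.20 without female Slfn3KO 1 and 2.

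**Figure D3:**
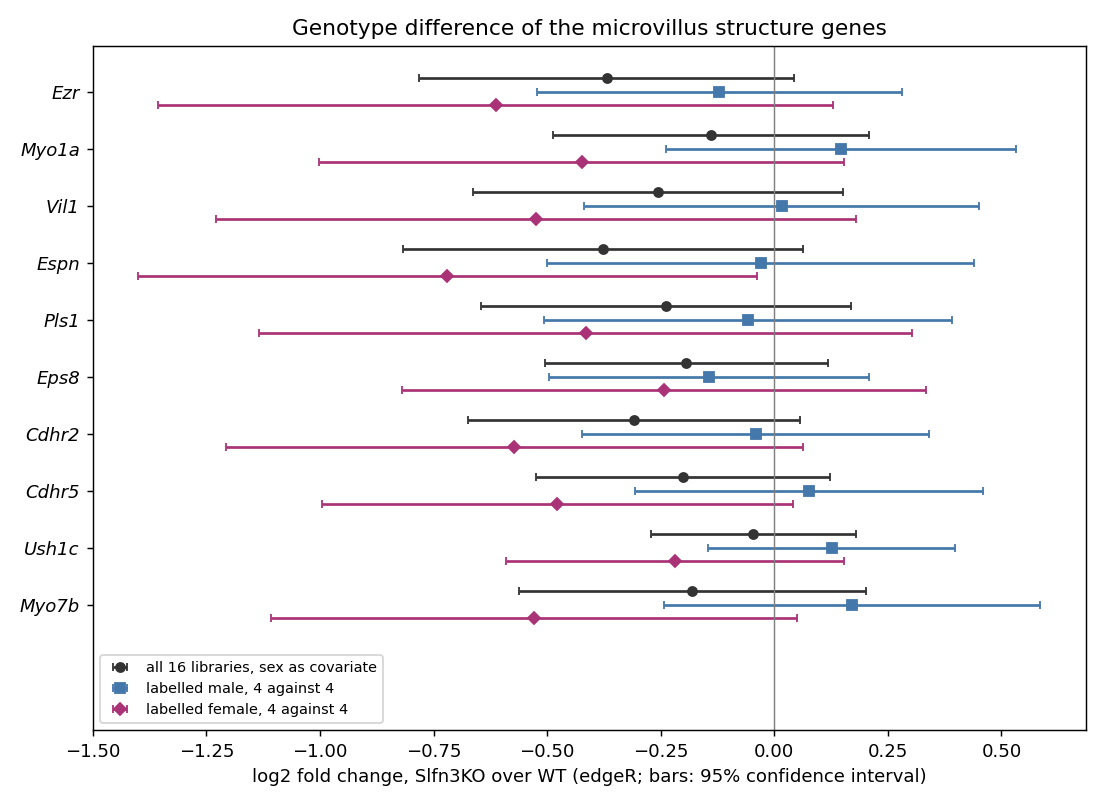
Log2 fold change of Slfn3KO over WT for each of the 10 genes with its 95% confidence interval, for all 16 libraries and for each labelled sex (edgeR). Female estimates are all below 0, male estimates lie on both sides of 0, and the female Espn interval is the only one of the 30 that does not cross 0.

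The 10 genes were high or low together in a library, and libraries of the same group differed. Female Slfn3KO 1 and 2 were the lowest 2 of the 16 libraries for each of the 10 genes, and female Slfn3KO 2 was lowest for 9 of them. Female WT 1 was the highest library for 9 of the 10. As a geometric mean over the 10 genes, female Slfn3KO 2 stood at 0.569 and female Slfn3KO 1 at 0.680 of the mean over all libraries, and female WT 1 at 1.52. The other 13 libraries lay between 0.828 and 1.30, with female Slfn3KO 3 and 4 at 0.950 and 1.03. Of the 4 female Slfn3KO libraries, 2 were thus low and 2 lay near the mean of all libraries.

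The same libraries stood apart in markers of the villus and the crypt. The 10 genes together took between 0.929% and 2.58% of all counts, a 2.78-fold range, from 9290 CPM in female Slfn3KO 2 to 25835 CPM in female WT 1. The 13 absorptive enterocyte markers, such as sucrase-isomaltase, ranged 2.69-fold, with 17173 to 32584 CPM in Slfn3KO females, 25111 to 46274 in WT females, 28422 to 41753 in Slfn3KO males and 28096 to 41914 CPM in WT males. Female Slfn3KO 2 and 1 were lowest and female WT 1 was highest for these markers too. The 9 crypt and cycling markers summed to 539.9 to 745 CPM in female Slfn3KO and 204 to 564 in female WT, and to 401 to 699 in male Slfn3KO and 242 to 650.4 CPM in male WT. For these markers the order was turned around, with female Slfn3KO 1 and 2 highest and female WT 1 lowest. At an unadjusted p under 0.05 in females, edgeR counted 7 of the 9 crypt and cycling markers as higher, beside 1206 of all 14064 genes. It counted 2 of the 13 absorptive markers as lower, beside 8.56% of all genes, and called none of either list. The share of all genes in either direction was 17.1%. Without female WT 3 and 4 the counts were 5 of 9 higher and 4 of 13 lower, beside 3508 of all 14634 genes in either direction. The 6 proximal markers summed to 116 to 691 CPM in female Slfn3KO and 334 to 4391 CPM in female WT, again with female Slfn3KO 2 and 1 lowest and female WT 1 highest. In males the proximal markers summed to 844 to 3292 CPM in Slfn3KO and 752 to 2262 CPM in WT. No marker of these lists was at 0 in all libraries of a group. The part of these differences in the levels of the 10 genes was not tested, and in bulk tissue fewer enterocytes and less of these transcripts per enterocyte cannot be told apart.

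The 11 pan-epithelial markers ranged only 1.58-fold, 18121 to 22354 CPM in Slfn3KO females, 19087 to 28658 in WT females, 19644 to 24933 in Slfn3KO males and 19047 to 23958 CPM in WT males. Per unit of these markers the 10 genes still ranged 1.77-fold, from 0.513 in female Slfn3KO 2 and 0.546 in female Slfn3KO 1 to 0.905 in male WT 4. Scaling the libraries to the epithelial markers moved the median of all genes by 0.13 in females and 0.14 for the difference between the sexes. On that scale the female median of the 10 genes was -0.35, beside 0.12 for all genes. Such a factor per library moves the fold changes of all genes nearly alike, so by fold change the 10 genes keep their place among all genes. It also alters the spread within a group, so p values can change. Before this scaling, edgeR counted 1 of the 10 at an unadjusted p under 0.05 in females, beside 17.1% of all genes. With the scaling it counted 4 of the 10, beside 1531 of all genes (10.9%). These were Espn, Myo7b, Cdhr2 and Cdhr5, with adjusted p values of 0.454 to 0.455.

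**Figure D4:**
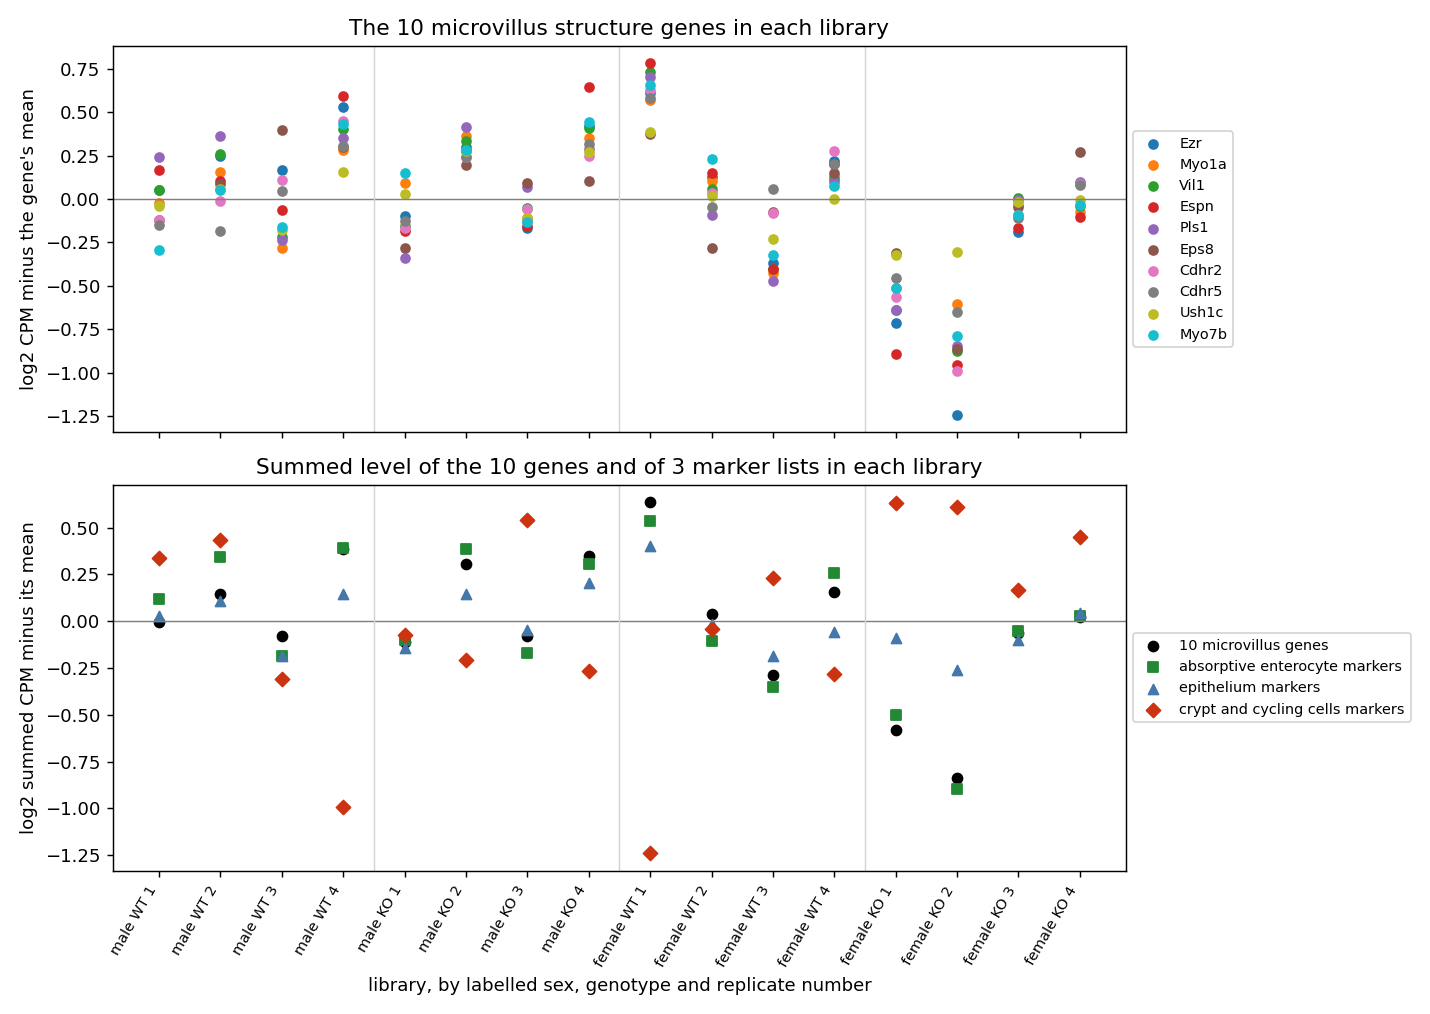
Upper panel, log2 CPM of each of the 10 genes minus its mean over 16 libraries; lower panel, log2 of the summed CPM of the 10 genes and of 3 marker lists minus its mean, by library. In female KO (Slfn3KO) 1 and 2 the 10 genes and the absorptive markers are lowest and the crypt and cycling markers highest, and in female WT 1 the reverse holds.

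The 10 genes differed in how far they moved. The SD of log2 CPM over the 16 libraries was 0.485 in Espn, 0.473 in Ezr, 0.418 in Pls1 and 0.407 in Vil1. It was 0.380 in Cdhr2, 0.374 in Myo7b, 0.331 in Myo1a, 0.324 in Eps8, 0.303 in Cdhr5 and 0.204 in Ush1c. The median gene had an SD of 0.323, so that Espn varied more than 69.7% of all genes tested and Ush1c more than 27.9%. Within a complex the spread was thus unequal, since harmonin moved less than the cadherins and the motor it binds. Pairwise Pearson correlations of log2 CPM over the 16 libraries ran from 0.573 between Ush1c and Eps8 to 0.978 between Ush1c and Myo1a, with a median of 0.886 over 45 pairs. These describe libraries that share depth, dissection and the low and high libraries named above, and they carry no test. Eps8 was the member least like the others, with a correlation of 0.732 with Vil1, beside 0.967 for Pls1, 0.966 for Espn and 0.966 for Myo1a.

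The levels were also set relative to villin within each library. Ezr stood at 48.8% ± 7.18 of the Vil1 RPKM in Slfn3KO females, 53.6% ± 3.62 in WT females, 52.1% ± 2.58 in Slfn3KO males and 57.9% ± 7.76 in WT males (SD, n = 4). Myo1a stood at 70.7% ± 7.36, 65.3% ± 4.05, 68.8% ± 7.14 and 62.4% ± 1.07 of Vil1 in the same order of groups. The mean Ezr share was lower and the mean Myo1a share higher in Slfn3KO than in WT in both labelled sexes. The female Ezr ranges, 41.0% to 58.0% and 48.5% to 56.7%, overlapped. For Ezr, male WT 1 and 2 stood at 52.7% and 52.2%, near the male Slfn3KO mean. Male WT 3 and 4, whose sex transcripts went against the label, stood at 68.9% and 57.8%. For Myo1a the ranges labelled male, 64.0% to 79.1% in Slfn3KO and 61.3% to 63.7% in WT, did not overlap. The female ranges, 64.8% to 80.4% and 59.5% to 68.6%, did. The share of all genes with such separate ranges was not computed. Female WT 3 and 4, whose sex transcripts went against the label, stood at 65.6% and 67.4% for Myo1a, inside the male Slfn3KO range. Ush1c stood at 8.34% ± 1.63 of Vil1 in Slfn3KO females, above 6.70% ± 0.995 in WT females, 6.96% ± 0.694 in Slfn3KO males and 6.45% ± 0.575 in WT males. The female Ush1c ranges, 6.92% to 10.5% in Slfn3KO and 5.52% to 7.93% in WT, overlapped. Female Slfn3KO 1 and 2 stood at 8.75% and 10.5%, and female Slfn3KO 3 and 4 lay inside the WT range. Pls1 kept 40.8% ± 3.00, Espn 4.65% ± 0.449 and Myo7b 9.11% ± 0.956 of the Vil1 RPKM over all 16 libraries (SD). In percentage points Cdhr5 had the widest range of these shares, from 53.3% in male WT 2 to 100.2% in female WT 3. The sex transcripts of female WT 3 went against its label. These shares describe the libraries and were not tested.

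The genes whose log2 CPM over the 16 libraries was most like the mean of the 10 were Ppp4r1, Mapk1ip1l, Sdcbp, Tollip and Patj, with Pearson correlations of 0.976, 0.976, 0.976, 0.976 and 0.975. Among the genes most like Vil1 alone were Cs, Reep3, Rfk and Npc1l1, with 0.986, 0.981, 0.980 and 0.980. Of the 10 genes, Vil1 was the one nearest the mean of all 10, at 0.982, and Eps8 the furthest, at 0.812. The shared low and high libraries enter each of these values.

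A wider list of 38 genes of the microvillus and the terminal web below it, all tested, gave the surroundings of the 10. In the pooled comparison 33 had a lower and 5 a higher mean in Slfn3KO, with a median log2 fold change of -0.092, and 0 were called by edgeR or DESeq2. At an unadjusted p under 0.05, edgeR counted 4 lower and 2 higher, beside 11.9% of all genes in either direction. The 3 lowest were Msn at -1.62 ± 0.50, Stk26 at -1.39 ± 0.42 and Rdx at -0.80 ± 0.29 (adjusted p = 0.327, 0.327 and 0.333, edgeR). Msn and Rdx encode moesin and radixin, the relatives of ezrin, and Stk26 is a kinase that can phosphorylate ezrin. The 3 highest were Avil at 0.49 ± 0.20, which encodes the villin relative advillin, Slc9a3r2 at 0.47 ± 0.20, a scaffold that binds ezrin, and Pls3 at 0.38 ± 0.27, a plastin (adjusted p = 0.337, 0.370 and 0.590). In females 30 of the 38 had a lower mean, 5 lower and 1 higher at an unadjusted p under 0.05 beside 17.1% of all genes, and in males 16 had a lower mean and 0 passed that mark. DESeq2 called 1 of the 38 in females, Msn, at an adjusted p of 0.0127, beside 3.6% of all genes. Without the WT libraries 3 and 4, whose sex transcripts went against the label, the pooled log2 fold changes were -0.073 ± 0.36 for Msn, -0.20 ± 0.32 for Stk26 and -0.21 ± 0.26 for Rdx, with unadjusted p values of 0.840, 0.546 and 0.424 (edgeR). Those of Avil and Slc9a3r2 were 0.50 ± 0.22 and 0.58 ± 0.25. The pooled differences of Msn, Stk26 and Rdx were thus smaller without these 4 libraries, and the cause was not tested. In that fit edgeR counted 1 of the 38 lower and 3 higher at an unadjusted p under 0.05, beside 5.8% of all genes. The female value of Msn was then -0.56 ± 0.26 (adjusted p = 0.236, edgeR).

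Moesin is abundant in leukocytes, and all markers of these had a lower pooled mean in Slfn3KO, as Msn did. The 11 B cell and follicle markers summed to 13.8 to 72.9 CPM in female Slfn3KO and 31.1 to 708 in female WT, and to 5.87 to 169 in male Slfn3KO and 10.4 to 1110.0 CPM in male WT. All 11 had an unadjusted p under 0.05 in the pooled comparison, beside 11.9% of all genes, and none was called by edgeR. The high sums were those of the WT libraries 3 and 4, at 546 and 708 CPM in those labelled female and 1110.0 and 230 CPM in those labelled male. The WT libraries 1 and 2 stood at 31.1 and 164 CPM in females and 12.9 and 10.4 CPM in males. They lay inside the range of the Slfn3KO libraries of both sexes together, but female WT 2 lay above the female Slfn3KO range. Without the WT libraries 3 and 4, edgeR counted 0 of the 11 at an unadjusted p under 0.05, and 2 of the 11 had a lower pooled mean in Slfn3KO. In females all 11 still had a lower mean without these libraries, with a median log2 fold change of -1.46, and 0 reached that mark. The 9 markers of T cells and other leukocytes summed to 149 to 276 CPM in Slfn3KO females, 198 to 578 in WT females, 98.6 to 309 in Slfn3KO males and 208 to 901 CPM in WT males. Without the WT libraries 3 and 4, all 9 still had a lower mean in Slfn3KO, with a median of -0.20 pooled and -0.61 in females. At an unadjusted p under 0.05, edgeR then counted 0 of the 9 pooled. In females it counted 2, beside 3508 of all 14634 genes. No marker of either list was at 0 in all libraries of a group, and their part in the values of Msn, Stk26 and Rdx was not tested.

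Of 13 transcription factors of the enterocyte, all tested, 7 had a lower and 6 a higher pooled mean in Slfn3KO, with a median log2 fold change of -0.0024. None was called by edgeR, which counted 1 of the 13 at an unadjusted p under 0.05, beside 11.9% of all genes. Gata6 and Cdx1 were among the highest at 0.30 ± 0.17 and 0.21 ± 0.11 (adjusted p = 0.514 and 0.471, edgeR). Without the WT libraries 3 and 4 these were 0.080 ± 0.14 and 0.13 ± 0.13. Klf4, Maf and Smad4 were the lowest at -0.29 ± 0.22, -0.19 ± 0.19 and -0.16 ± 0.17. In females the log2 fold change was -0.74 ± 0.33 for Klf4, which acts in differentiated and goblet cells, and -0.58 ± 0.25 for Maf, a factor of mature enterocytes. Their male values were 0.16 ± 0.18 and 0.22 ± 0.18, and neither gene passed the test for a difference between the sexes (adjusted p = 0.441 and 0.441, edgeR).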

How the data were processed

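Single reads of ileum mucosa RNA from 16 mice were trimmed with cutadapt and aligned with STAR to mm10 by the authors. The authors deposited raw counts per gene in 1 table, not normalized, whose header names featureCounts (1.4.6 in the submitters' notes) with reverse-stranded counting, while the paper names HTSeq. The deposited table also gives an exon length for each gene in bases, and GENCODE M21 gave symbols to 45143 of its 46078 identifiers.

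Libraries held 20823279 to 30813117 counts. Replicates of a group differed by more than sampling noise, with a chi-square per degree of freedom of at least 26.4, and were kept as separate samples grouped by the deposited labels. Counts carry no molecular identifiers, so depth limits cover counting error only. CPM used TMM factors, log2 CPM a prior count of 2, and RPKM the deposited length. Tests used edgeR 4.0.16 in R 4.3.3 (filterByExpr, robust quasi-likelihood, Benjamini-Hochberg adjustment over all genes tested), with labelled sex as covariate in the pooled fit and none within a sex. A call needed an adjusted p under 0.05 and at least 1.5-fold. The standard error was the log2 fold change, without its sign, over the square root of F. DESeq2 1.42.0 (the submitters' notes name 1.22.2), RLE factors, scaling to epithelial markers, other filters, no covariate, one fit over 4 groups, a replicate block, an unadjusted p and left-out samples were alternatives. The edgeR step was tested on simulated data.

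Named genes are the 10 members, Slfn3, the 3 highest and 3 lowest pooled log2 fold changes of each of 2 pathway lists, and the 5 genes nearest in Pearson correlation to the mean of the members and to Vil1, of which 2 are not reported here. Marker lists describe the libraries. The members and lists were chosen with earlier results of these data known. Same-numbered male Slfn3KO and WT samples deviated together, with correlations of 0.229, 0.317, 0.518 and 0.138, although 2 of the 4 Slfn3KO samples correlated best with another number, and female ones did not, with -0.362, 0.143, -0.337 and -0.113. The pairing comes from replicate numbers in the labels, which are different mice. The fit without female Slfn3KO samples 1 and 2 was added after the data were seen.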

Additional observations from a re-analysis of the deposited data

How the results depend on the processing

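Under each alternative tried, 0 of the 10 genes passed the adjusted threshold in any comparison. DESeq2 in place of edgeR called 54 genes over all mice, 14 in males, 507 in females and 19 in the test between the sexes. With an unadjusted p and the 1.5-fold limit edgeR called 984, 272, 1366 and 946 genes in the same order, among them 1 of the 10 in females (Espn) and 1 for the difference between the sexes (Myo7b). Without the WT samples 3 and 4 it called 359 genes for the difference between the sexes. The male log2 fold change was then -0.0029 in Vil1, 0.056 in Espn, 0.053 in Eps8 and 0.15 in Cdhr2, each of the opposite sign. Scaling to the epithelial markers gave 0.020 for Ush1c in the pooled comparison, -0.0080 for Vil1 in males and 0.063 for Eps8 in the difference between the sexes, where this scaling moved the median of all genes by 0.058, -0.018 and 0.14. Without female Slfn3KO samples 1 and 2, an alternative chosen after seeing the data, the values were 0.018 for Myo1a, 0.051 for Ush1c and 0.0043 for Myo7b in the pooled comparison, and 0.058 for Eps8 in females. The same fit gave 0.21 for Eps8 and a median of -0.20 over the 10 genes for the difference between the sexes. The cause of the reversals under the left-out samples was not tested, and each reversal is of a value that did not pass the test. With each library left out in turn, the median of the 10 genes lay between -0.28 and -0.12 over all mice, between -0.083 and 0.10 in males, between -0.63 and -0.31 in females and between -0.67 and -0.35 for the interaction of sex and genotype. In males the ranges crossed 0 for Vil1 (-0.076 to 0.10), Espn (-0.21 to 0.10), Pls1 (-0.17 to 0.067) and Cdhr2 (-0.12 to 0.071). The same held for Ush1c in the pooled comparison (-0.091 to 0.028, above 0 without female WT 1) and for Eps8 in the difference between the sexes (-0.29 to 0.074, above 0 without female Slfn3KO 2 or female WT 1). With the replicate number as a block, the median of the 10 genes was -0.22 over all libraries, -0.012 in males and -0.50 in females, and no call changed. In females, where the numbers did not pair the samples, the block left 1306 genes at an unadjusted p under 0.05 in place of 2410, and none of the 10. At that unadjusted mark the female count of the 10 was 5, beside 2858 of all genes, with all 4 groups in one fit. With 1 library left out it was 0 to 4, while the count over all genes ran from 1229 to 3704. Each of the 10 genes held at least 3957 counts in each library, so counting error was small beside the spread between libraries.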
